A study of Homo sapiens with 4 samples.

Results

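The machinery that adds, removes and reads acetyl groups on histones was followed through 33 genes, chosen by name for their role, out of 57815 in the table. They were 7 zinc-dependent deacetylases, 7 sirtuins, 10 acetyltransferases, 3 coactivators of the p160 family, 2 BET readers and 4 corepressor scaffolds, spread over 18 chromosomes. The scaffolds have no deacetylase activity of their own. The class IIa deacetylases were outside the 33 genes and are described as near relatives.

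Acetyltransferases mark histone tails, which loosens their hold on DNA, and bromodomain proteins bind the mark. Zinc-dependent deacetylases (HDACs) and NAD-dependent sirtuins remove it. Of these, HDAC1, HDAC2 and HDAC3 work inside large complexes built on scaffolds such as SIN3A, NCOR1 and RCOR1. In breast cancer, inhibitors of HDACs and of BET bromodomains are studied because they alter the activity of enhancers.

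Total RNA of 2 human cell lines was sequenced, with 2 libraries for each. The first, MDA-MB-231, comes from triple-negative breast cancer, and LM2-4175 was isolated from it and has a strong tendency to spread to the lung. Both lines were untreated and were grown in the same medium, DMEM with serum. Each condition is 1 cell line, so what is measured is the difference between this pair of lines. For every gene and line the authors deposited a single FPKM, a read level corrected for transcript length and for the mapped fragments of the library, together with bounds. Since both libraries went into that single value, no difference has a replicate check and no p-value was computed. The table holds no read counts, and the bounds are the measure of precision.

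The hormone receptors ESR1 and PGR were under 0.1 FPKM in both lines, and ERBB2 had 34.95 against 22.8 FPKM. The mesenchymal gene VIM had 1355 against 1768 FPKM, CDH1 was under 1 FPKM in both, and EPCAM, an epithelial adhesion gene, was lower in LM2-4175 (12.3 against 4.93 FPKM). The 3 markers of a mesenchymal-like line, VIM, CD44 and EGFR, were split, 2 higher and 1 lower in LM2-4175. Their log2 fold changes of FPKM + 1 ran from -0.40 to 0.38, and none reached 1.5-fold. Among markers of other cell types CD3E was at 0 in both lines, and the highest were CD14 (1.17 against 1.75 FPKM) and LUM (1.34 against 0.178 FPKM).

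None of the 33 genes met the rule for a call, against 9.27% of the 13911 genes tested (4.67% higher and 4.61% lower in LM2-4175). The rule asked for a change of at least 1.5-fold in FPKM + 1 together with bounds that lie apart. All 33 genes were tested, that is, they had a mean of at least 0.5 FPKM and a status of OK in both lines. The change alone passed 1.5-fold for 1 gene, HDAC11, which was lower. Of all genes tested 22.1% passed it, 11.8% lower, and of those with a mean of at least 5 FPKM, which 30 of the 33 genes had, 18.8% passed it. No gene of the 33 had bounds apart, against 9.39% of all genes tested.

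On the scale of FPKM + 1, the log2 fold changes of LM2-4175 over MDA-MB-231 ran from -0.79 (HDAC11) to 0.56 (HDAC8). Their median was -0.09, beside -0.04 for all genes tested. In 22 of the 33 genes (66.7%) the FPKM was lower in LM2-4175, as in 54.5% of all genes tested. That split moved with the scaling. When both lines were scaled to the same sum of FPKM, or centred on the median of all genes, 18 of 33 were lower, and BRD3, EP300, KAT2A and SIRT5 had changed side. In 9 genes the log2 fold change was within 0.1 of 0.

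A missing call does not show equal expression. Taken at their extremes, the bounds left room for at least 1.5-fold in one direction for all 33 genes and for 2-fold for 29 of them. The upper bound lay a median of 32.2% above the FPKM in MDA-MB-231 and 35.3% in LM2-4175, against 38.6% and 38.1% for all genes tested.

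**Figure D1:**
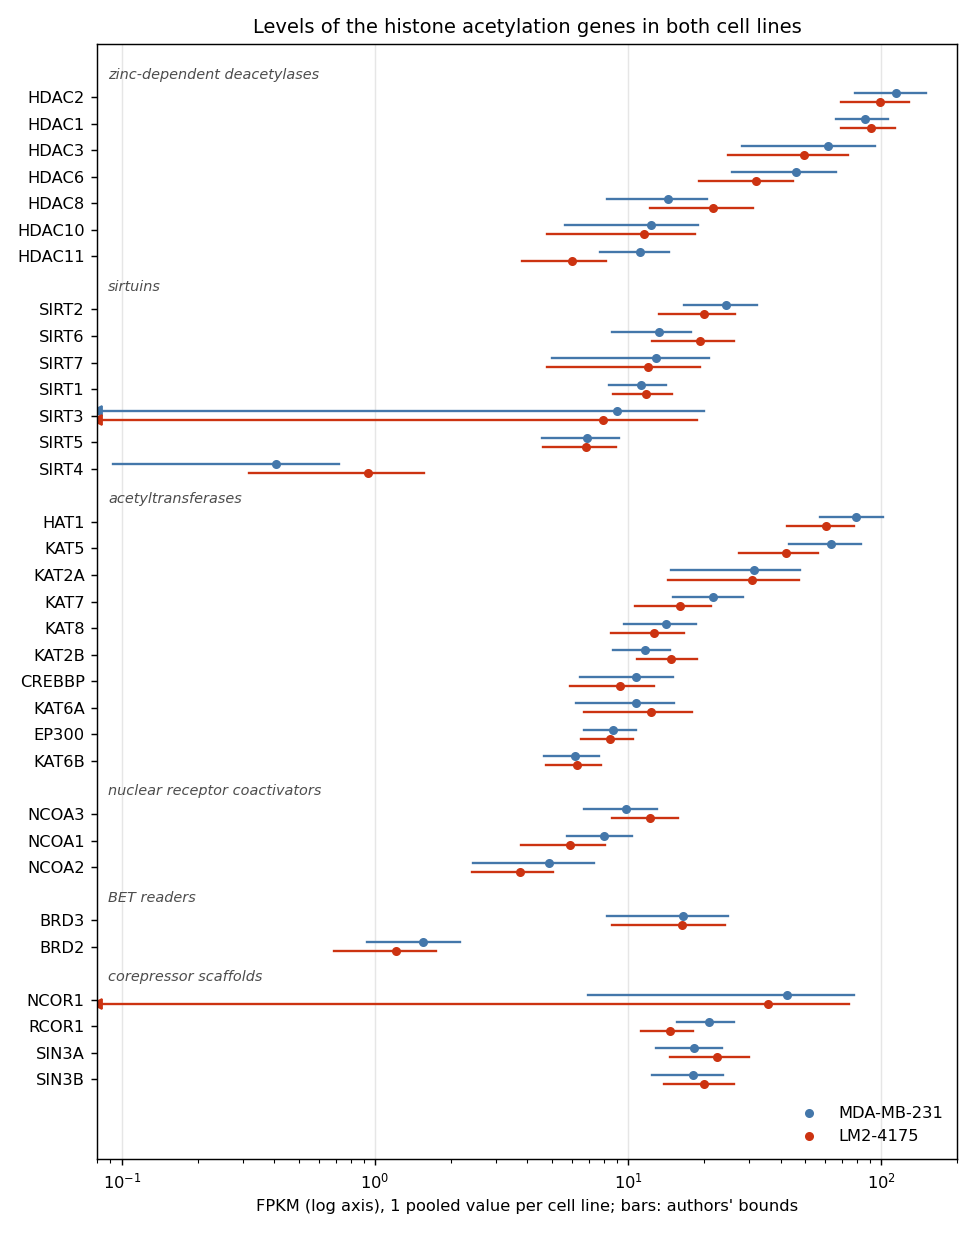
FPKM of the 33 genes on a log axis, 1 pooled value for each cell line, with bars for the bounds, arrowheads at the left edge for lower bounds of 0, and genes grouped by role. The bars of the lines overlap for every gene, and HDAC2, HDAC1 and HAT1 are the highest in both.

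FPKM is a level per transcript length, so the genes can be ranked within a line. HDAC2, HDAC1 and HAT1 held ranks 1 to 3 in both lines, and NCOA2, BRD2 and SIRT4 held ranks 31 to 33. Most neighbours in the order could not be told apart. Of 64 neighbouring pairs over both lines, 3 had bounds apart: NCOA2 over BRD2 in both lines, and BRD2 over SIRT4 in MDA-MB-231. All 3 rest on the listed level of BRD2, which lies among genes listed at or near 0 (described with BRD2) and was not read as its expression. The largest shift in rank between the lines was 7, and 9 genes kept their rank. Among all genes tested the 33 genes had a median percentile of level of 52.6 in MDA-MB-231 and 56.2 in LM2-4175.

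The sequence before the transcription start is shown for the genes with the most negative (HDAC11, KAT5) and the most positive (HDAC8, SIRT6) changes on the scale of FPKM + 1, as the extremes of a range in which nothing was called. Each window is the 250 bases upstream of a RefSeq start in GRCh38.p14, a later build than that of the expression table. Capitals mark matches, on either strand, to the GC box GGGCGG, the CCAAT box, the TATA box TATAAA, the ETS motif CCGGAAG, the NRF1 palindrome and the cyclic AMP element TGACGTCA. Matches of different motifs may overlap.
HDAC11, chr3:13480056-13480305, plus strand: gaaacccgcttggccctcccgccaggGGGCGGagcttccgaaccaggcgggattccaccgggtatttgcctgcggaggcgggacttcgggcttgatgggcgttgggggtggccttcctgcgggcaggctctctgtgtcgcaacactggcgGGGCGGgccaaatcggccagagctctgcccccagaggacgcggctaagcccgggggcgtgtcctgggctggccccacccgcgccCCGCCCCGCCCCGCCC
KAT5, chr11:65712002-65712251, plus strand: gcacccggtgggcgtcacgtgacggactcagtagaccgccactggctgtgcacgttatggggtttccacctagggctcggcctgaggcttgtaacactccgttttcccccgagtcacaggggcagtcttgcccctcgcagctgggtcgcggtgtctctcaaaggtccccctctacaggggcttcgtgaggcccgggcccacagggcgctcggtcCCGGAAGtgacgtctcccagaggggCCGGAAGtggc
HDAC8, chrX:72572844-72573093, minus strand: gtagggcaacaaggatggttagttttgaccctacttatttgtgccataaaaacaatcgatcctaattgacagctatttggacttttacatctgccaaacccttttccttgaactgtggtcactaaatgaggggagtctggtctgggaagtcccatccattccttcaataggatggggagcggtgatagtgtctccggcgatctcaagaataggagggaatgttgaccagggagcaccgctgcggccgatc
SIRT6, chr19:4182564-4182813, minus strand: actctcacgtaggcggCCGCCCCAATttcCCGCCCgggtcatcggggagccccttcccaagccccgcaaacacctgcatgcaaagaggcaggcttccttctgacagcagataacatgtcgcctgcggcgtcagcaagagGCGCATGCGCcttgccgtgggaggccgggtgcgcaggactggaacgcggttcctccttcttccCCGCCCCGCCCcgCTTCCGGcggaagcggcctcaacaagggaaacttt
The window of HDAC11 held 5 GC boxes and 73.6% G and C. That of KAT5 held no GC box and 2 ETS motifs. HDAC8 had none of the motifs and 48.0% G and C, and SIRT6 had 4 GC boxes and 1 match each to CCAAT, ETS and NRF1 in the first of its 2 windows.

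RefSeq gave 44 windows for 29 of the 33 genes, and none for KAT6A, KAT8, SIRT7 and NCOA2. A GC box stood in 27 of the 44 (61.4%), against 63.1% of 13905 windows of genes tested and 42.6% of all 35116 windows. The median G and C content was 66.8%, against 64.4% and 58.0%. CCAAT was found in 29.5%, the ETS motif in 15.9% and TATAAA in 9.09% of the 44 windows, where the windows of genes tested had 33%, 14.1% and 5.77%. The NRF1 motif was in 3 windows, a pair of overlapping ones of SIRT5 and that of SIRT6 (6.82% against 1.63%). The cyclic AMP element was in 1 window, that of SIRT4 (2.27% against 2.47%). These are matches of letters, not measured sites.

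In the following, values of a gene are given for MDA-MB-231 first and LM2-4175 second, with the bounds in square brackets. Among the zinc-dependent deacetylases, the class I enzymes HDAC1, HDAC2 and HDAC3 had the highest levels, though the bounds of HDAC3 overlapped those of HDAC6. HDAC8, also of class I, was listed below HDAC6 in both lines. HDAC1 and HDAC2 are alternative catalytic subunits of the SIN3, NuRD and CoREST complexes. HDAC1 had 86.3 FPKM [66.2, 106.5] against 91.1 FPKM [69.3, 112.8], and HDAC2 had 114.4 FPKM [78.9, 149.9] against 98.8 FPKM [69.2, 128.3]. HDAC3, the enzyme of the NCoR/SMRT complex, had 61.4 FPKM [28.1, 94.6] against 49.5 FPKM [24.8, 74.2]. These 3 genes held 75.7% of the FPKM of the 7 deacetylases in MDA-MB-231 and 77.1% in LM2-4175. HDAC1 was listed at 0.755 times HDAC2 in MDA-MB-231 and 0.922 times in LM2-4175, with overlapping bounds in both.

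HDAC8, which deacetylates the cohesin subunit SMC3, had the most positive log2 fold change of the 33 genes on the scale of FPKM + 1, 0.56, while with a pseudocount of 0.1 FPKM or none that of SIRT4 was higher (1.04 and 1.21). Its level was 14.3 FPKM [8.27, 20.4] against 21.6 FPKM [12.2, 31], and the extremes of the bounds span ratios of 0.595 to 3.75. HDAC6, the cytoplasmic tubulin deacetylase, had 46.2 FPKM [25.8, 66.5] against 31.9 FPKM [19.01, 44.9] (log2 fold change -0.52). HDAC10, a polyamine deacetylase, had 12.3 FPKM [5.65, 18.9] against 11.6 FPKM [4.78, 18.4]. Other genes, among them MAPK12 on the same strand, overlap 73.6% of the exon bases of HDAC10, and how the reads there were shared out is not stated.

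HDAC11, the class IV enzyme, was the furthest from 0 on the scale of FPKM + 1. It lies on chromosome 3 of GRCh37 (13521224 to 13547924, plus strand) and had 11.1 FPKM [7.74, 14.6] against 6.01 FPKM [3.82, 8.20]. Its log2 fold change was -0.79, with ratios of 0.262 to 1.06 at the extremes of the bounds. The upper bound of LM2-4175 passed the lower bound of MDA-MB-231, so the lines overlapped and the gene was not called. The antisense gene HDAC11-AS1 was at most 0.0519 FPKM. A laxer rule chosen after the values were seen, the usual normal limit on the standard error of the difference, called 2 of the 33 genes, HDAC11 and RCOR1, both lower. It called 16.7% of all genes tested, 9.09% lower.

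The class IIa deacetylases bind MEF2 factors and have weak enzymatic activity. HDAC9 rose, with 12 FPKM [8.46, 15.5] against 35.3 FPKM [26.01, 44.6]. HDAC4 (7.83 against 6.10 FPKM), HDAC5 (8.42 against 12.3 FPKM) and HDAC7 (21.04 against 17.9 FPKM) were not called.

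The 7 sirtuins summed to 78.2 FPKM in MDA-MB-231 and 78.6 FPKM in LM2-4175. SIRT1, the nuclear deacetylase of p53 and histones, had 11.3 FPKM [8.41, 14.2] against 11.8 FPKM [8.70, 14.9], with ratios of 0.615 to 1.77 at the extremes. SIRT2, a mainly cytoplasmic enzyme, was listed highest of the sirtuins in both lines, with 24.5 FPKM [16.6, 32.3] against 19.9 FPKM [13.3, 26.5]. Its bounds overlapped those of SIRT6 in both lines. SIRT6, which deacetylates histone H3 and protects telomeres, had 13.2 FPKM [8.61, 17.8] against 19.2 FPKM [12.4, 26.1], a log2 fold change of 0.51. SIRT7, the nucleolar sirtuin, had 12.9 FPKM [4.98, 20.8] against 12.02 FPKM [4.79, 19.2].

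The mitochondrial sirtuins were listed lower, though the bounds of SIRT3 and SIRT5 overlapped those of SIRT1 in both lines. SIRT3, the main mitochondrial deacetylase, had 9.07 FPKM [0, 19.9] against 7.95 FPKM [0, 18.6], and with lower bounds of 0 its difference cannot be read. SIRT5, a desuccinylase, had 6.87 FPKM [4.55, 9.19] against 6.79 FPKM [4.59, 8.98]. SIRT4 had the lowest level of the 33 genes, 0.405 FPKM [0.0926, 0.718] against 0.937 FPKM [0.317, 1.56]. Its log2 fold change of 0.46 depended on the pseudocount and was 1.21 without one, while the bounds span ratios of 0.442 to 16.8. Without a pseudocount, a rule of 1.5-fold alone, added after the values were seen, called 2 of the 33 genes higher (HDAC8 and SIRT4) and 2 lower (HDAC11 and KAT5). It called 29.4% of all genes tested, 13.9% higher and 15.4% lower.

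Of the 10 acetyltransferases, 7 were on the lower and 3 on the higher side in LM2-4175. None was called, and their median was -0.09 on the log2 scale. HAT1 acetylates newly made histone H4 and had 79.6 FPKM [57.4, 101.9] against 60.3 FPKM [42.3, 78.2]. KAT5, the catalytic subunit of the NuA4/TIP60 complex, had 63.1 FPKM [43.04, 83.2] against 41.9 FPKM [27.5, 56.3]. Its log2 fold change of -0.58 on the scale of FPKM + 1 fell short of 1.5-fold. Without a pseudocount it was -0.59, past 1.5-fold. RNASEH2C, on the opposite strand, overlaps 38.6% of the exon bases of KAT5.

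KAT7, the HBO1 enzyme, had 21.7 FPKM [14.99, 28.4] against 15.96 FPKM [10.6, 21.3]. KAT8, the MOF enzyme of H4 lysine 16, had 14.1 FPKM [9.62, 18.5] against 12.6 FPKM [8.59, 16.6]. The paralogs KAT6A and KAT6B (MOZ and MORF) acetylate histone H3. KAT6A had 10.7 FPKM [6.20, 15.2] against 12.3 FPKM [6.71, 17.9], and KAT6B had 6.14 FPKM [4.64, 7.65] against 6.26 FPKM [4.72, 7.80]. None of these enzymes was apart between the lines, and KAT6A and KAT6B overlapped within each line.

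EP300 and CREBBP, the paralogs that acetylate H3K27 at enhancers, overlapped each other in both lines. EP300 had 8.73 FPKM [6.71, 10.8] against 8.48 FPKM [6.52, 10.4], with ratios of 0.606 to 1.56 at the extremes, and CREBBP had 10.8 FPKM [6.46, 15.1] against 9.24 FPKM [5.88, 12.6]. KAT2A and KAT2B, the GCN5 and PCAF enzymes, take the same place in the SAGA and ATAC complexes. KAT2A had 31.3 FPKM [14.7, 47.9] against 30.8 FPKM [14.4, 47.2], and KAT2B had 11.7 FPKM [8.69, 14.7] against 14.7 FPKM [10.8, 18.7]. KAT2A was 2.68 times KAT2B in MDA-MB-231, where the bounds barely cleared each other (14.72 FPKM below KAT2A, 14.67 FPKM above KAT2B). In LM2-4175 it was 2.09 times KAT2B, with overlapping bounds, and whether these ratios differ was not tested. Another gene on the same strand overlaps 10.7% of the exon bases of KAT2A.

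The p160 coactivators bring acetyltransferases to nuclear receptors. NCOA3, often amplified in breast cancer, was the highest of them in both lines, with 9.84 FPKM [6.68, 12.99] against 12.2 FPKM [8.65, 15.7]. NCOA1 had 8.01 FPKM [5.71, 10.3] against 5.91 FPKM [3.76, 8.06], and NCOA2 had 4.89 FPKM [2.44, 7.33] against 3.72 FPKM [2.41, 5.04]. NCOA3 was 1.23 times NCOA1 in MDA-MB-231, with overlapping bounds, and 2.06 times in LM2-4175, with bounds apart, a difference that was not tested.

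The scaffolds were split, 2 on the higher and 2 on the lower side. RCOR1, which joins HDAC1 and HDAC2 to the demethylase KDM1A, had 20.8 FPKM [15.5, 26.1] against 14.6 FPKM [11.2, 17.97], a log2 fold change of -0.49. SIN3A had 18.1 FPKM [12.8, 23.4] against 22.4 FPKM [14.6, 30.1], and its paralog SIN3B had 17.98 FPKM [12.4, 23.6] against 20.02 FPKM [13.8, 26.2]. NCOR1, the partner of HDAC3, had 42.5 FPKM [6.93, 78.1] against 35.8 FPKM [0, 74.7], the widest bounds of the scaffolds. Its pseudogene NCOR1P1 was listed at 1.24 FPKM in MDA-MB-231 and 0 in LM2-4175.

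BRD3 binds acetylated lysines through its bromodomains and had 16.5 FPKM [8.25, 24.8] against 16.4 FPKM [8.63, 24.1]. BRD3OS, on the opposite strand, overlaps 18.6% of the exon bases of BRD3. The paralog BRD2 had 1.54 FPKM [0.928, 2.16] against 1.21 FPKM [0.688, 1.74], so that BRD3 was listed 10.7 times as high in MDA-MB-231 and 13.5 times in LM2-4175, with bounds apart.

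BRD2 lies in the major histocompatibility complex on chromosome 6 of GRCh37 (32936371 to 32949282, plus strand), in a stretch with few listed levels, picked here after its values were seen. From 4.4 Mb before the start of BRD2 to 0.5 Mb after it, 171 of 176 protein-coding genes (97.2%) were under 1 FPKM in both lines, and 138 (78.4%) were listed at 0 in both. The shares over all 19398 protein-coding genes were 39.5% and 12.6%. The 5 genes that reached 1 FPKM were CCHCR1, TCF19, HLA-C, HLA-B and BRD2. RPS18, a ribosomal protein gene that every cell uses, was listed at 0 in both lines, as was VARS, a valyl-tRNA synthetase gene. Further on, from 0.6 to 5 Mb after BRD2, 19 of 62 genes (30.6%) were under 1 FPKM. A listed 0 can be a failed estimate, so the level of BRD2 and its ratio to BRD3 are given as listed and were not read as low expression.

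**Figure D2:**
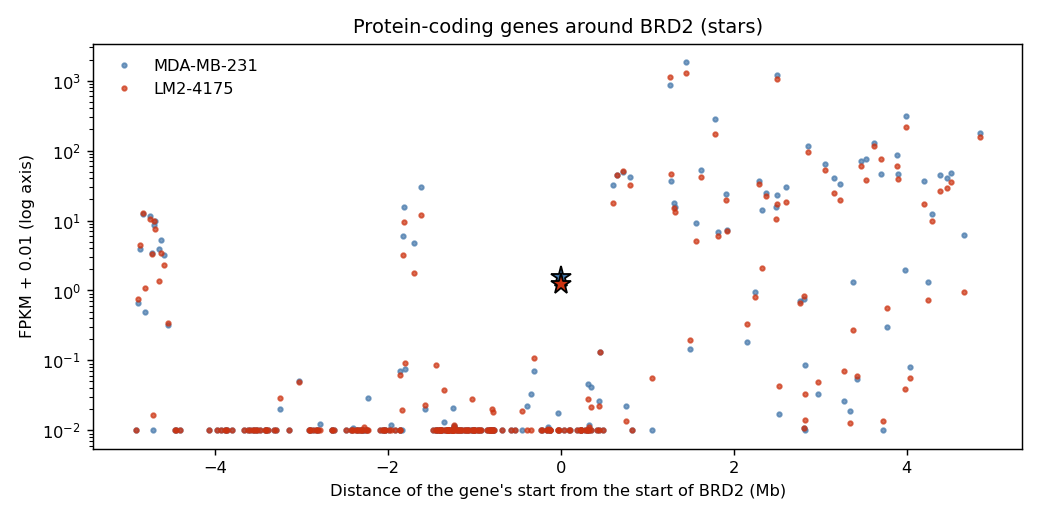
FPKM + 0.01 on a log axis for protein-coding genes, against distance from the start of BRD2 in Mb, 1 point for each gene and line, with stars for BRD2. From 4.4 Mb before to 0.5 Mb after BRD2, 138 of 176 genes are at 0 in both lines and form the bottom row.

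Each gene was also set beside the protein-coding genes tested within 2 Mb. For 7 of the 33 the neighbours' median log2 fold change was beyond 0.3, in 3 cases higher and in 4 lower. HDAC6 on chromosome X had -0.52, and 37 of its 42 neighbours were lower, with a median of -0.54. SIN3A on chromosome 15 had 0.29 where 36 of 38 neighbours were higher, with a median of 0.51. HAT1 on chromosome 2 had -0.40 beside a median of -0.33 over 17 neighbours.

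BRD3 on chromosome 9 had -0.02 although 33 of 34 neighbours were lower, with a median of -0.49. KAT6B had 0.02 where 24 of 27 were higher, with a median of 0.37. HDAC11 had -0.79 beside 0.19 over 25 neighbours, and SIRT6 had 0.51 beside 0.07 over 74. HDAC2 had 3 neighbours tested, too few to read. In 23 of the 33 genes the sign was that of the neighbours' median. No such share over all genes tested is given to set beside it, and 9 of the 33 genes lay within 0.1 of 0. The part of position in these values was not tested.

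**Figure D3:**
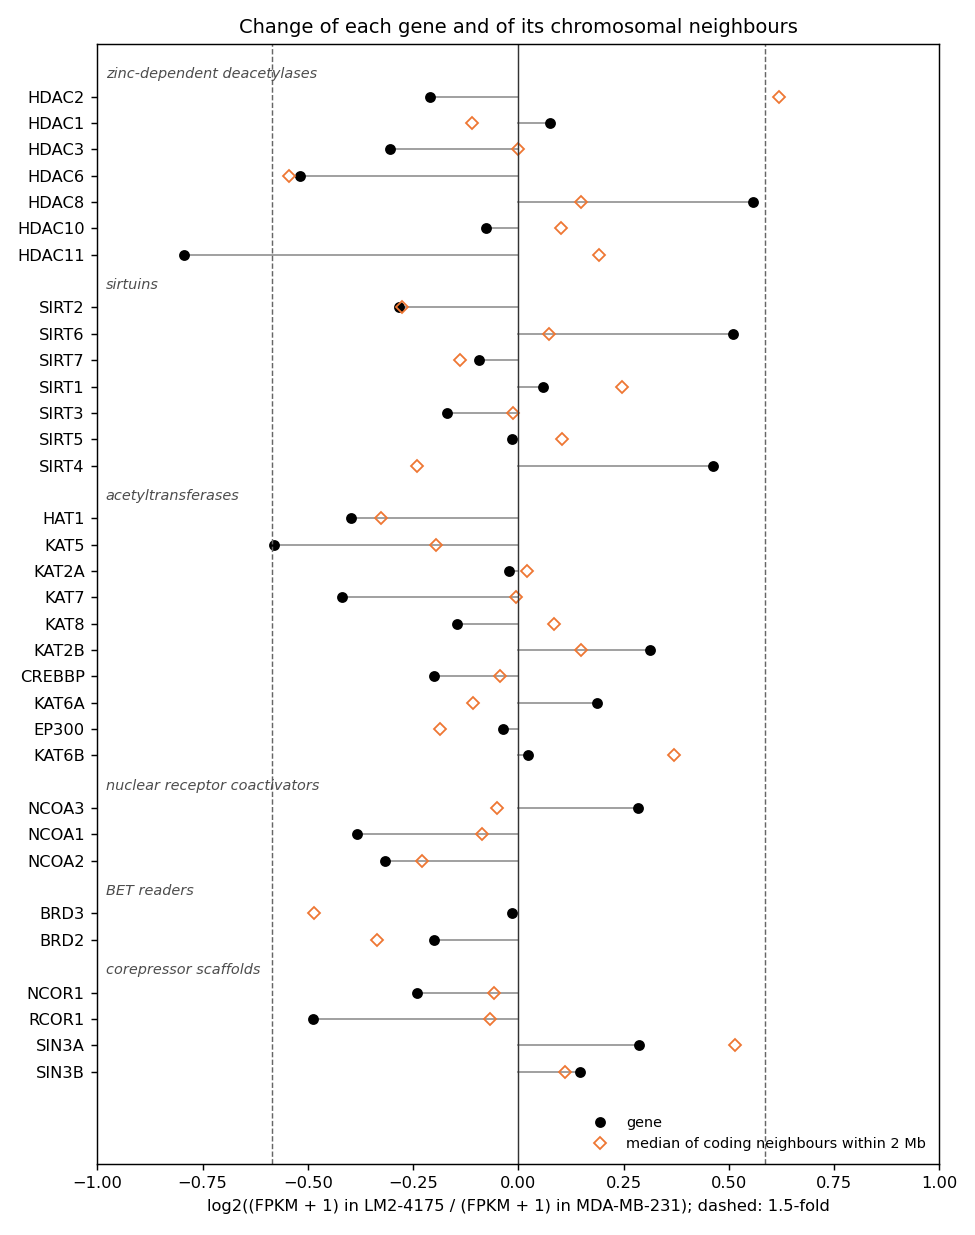
Log2 fold change of FPKM + 1, LM2-4175 over MDA-MB-231, for each of the 33 genes (filled) and the median of the protein-coding genes tested within 2 Mb (open diamonds), with dashed lines at 1.5-fold. HDAC11 is the 1 gene past a dashed line, and the neighbours of HDAC6 and SIN3A have medians of -0.54 and 0.51.

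The partners of these enzymes were read from lists by role, 126 genes of which 121 were tested. Of these, 3 were called higher and 5 lower, where 4.67% and 4.61% of all genes tested were called. The median log2 fold change was -0.10, beside -0.04 for all genes tested. No gene was called in the SAGA and ATAC, NuA4/TIP60, MOZ and HBO1, NuRD, CoREST, or NCoR/SMRT and MiDAC lists, nor among further acetyltransferases such as CLOCK and GTF3C4. Each gene stands in 1 list, and subunits shared by SIN3 and NuRD, such as RBBP7, were counted under SIN3. The furthest from 0 there were TRRAP (10.9 against 6.81 FPKM), MORF4L1 (265.9 against 438.4 FPKM), MORF4L2 (255.1 against 424 FPKM), MBD3 (63.9 against 36.3 FPKM) and ZMYM2 (7.75 against 14.1 FPKM). All 5 genes of the MOZ and HBO1 list had a lower FPKM in LM2-4175, with a median of -0.31 and none past 1.5-fold, and 4 of 5 were lower after scaling to the same sum or centring.

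RBBP7, a histone-binding subunit of the SIN3 and NuRD complexes, fell, with 195.5 FPKM [135.9, 255.1] against 81.9 FPKM [60.3, 103.5]. WDR5, a subunit of the NSL complex of KAT8 and of H3K4 methyltransferases, fell, with 48.4 FPKM [36.6, 60.3] against 29.3 FPKM [22.1, 36.5], but its bounds barely cleared each other and the call was lost when both lines were scaled to the same sum of FPKM. Of 16 acetyl-lysine readers tested, TRIM24 fell, with 15.7 FPKM [11.9, 19.6] against 7.51 FPKM [5.55, 9.48], and PHIP rose, with 7.58 FPKM [5.75, 9.40] against 13.1 FPKM [9.96, 16.2].

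In the list of acetyl-CoA and NAD supply 3 of 13 genes tested were called, 1 higher and 2 lower, beside 9.27% of all genes tested. NNMT, which methylates nicotinamide, fell, with 75.01 FPKM [53.7, 96.3] against 16.3 FPKM [11.2, 21.4]. ACSS1, the mitochondrial acetyl-CoA synthetase, fell, with 7.32 FPKM [5.43, 9.21] against 1.49 FPKM [1.01, 1.98]. NMNAT2, an enzyme of the last step of NAD synthesis, rose, with 4.48 FPKM [1.99, 6.97] against 20.6 FPKM [11.1, 29.98].

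**Figure D4:**
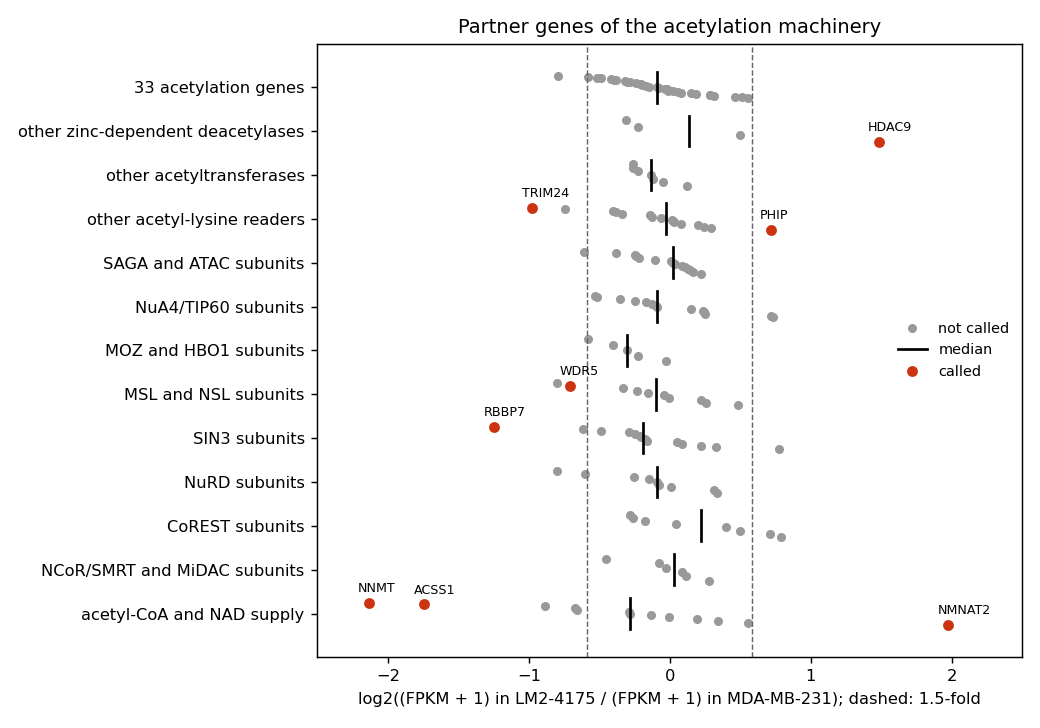
Log2 fold change of FPKM + 1, LM2-4175 over MDA-MB-231, for the 33 genes and each list of partner genes, 1 point for each gene, with black bars for medians and dashed lines at 1.5-fold. The 8 named points in red met the rule for a call, and none of the 33 genes did.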

How the data were processed

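RNA-Seq of MDA-MB-231 and LM2-4175 was analysed, 2 libraries each, grouped by the cell line in the labels. The authors aligned reads to hg19 with TopHat, quantified GENCODE 19 genes with Cufflinks and Cuffdiff, and deposited 1 FPKM per gene and line with its bounds. The confidence level of the bounds, strand and the handling of reads that map to several places are not given in the sources used here. No library has a value of its own, so no test across replicates was possible and genes were called from the bounds.

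Log2 fold changes of FPKM + 1 were computed in Python 3.11.15 with pandas 2.3.3, for genes with a mean of at least 0.5 FPKM and status OK in both lines (8 genes had another status). For the rule on standard errors, 1 error was the gap between FPKM and upper bound, divided by 2. The calling code was tested on simulated data. Positions came from GENCODE 44 on GRCh37, matched by Ensembl ID for 55535 genes. NAA60 has 2 rows, and the higher was used. The genes and lists were chosen with earlier results of these data known. Named are all 33 genes and, from the other lists, called genes and those with the largest changes, and some list genes are not reported here. Alternatives were the pseudocount, filter, scaling, fold, bounds and window.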

Additional observations from a re-analysis of the deposited data

How the results depend on the processing

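None of the 33 genes was called with a pseudocount of 0.1 FPKM or none, without the filter on low values or with a mean of 5 FPKM, after scaling or centring, at 2-fold, or by the bounds alone, and the median log2 fold change stayed between -0.10 and -0.02. With 1.5-fold alone, 1 gene was called lower (HDAC11). Among rules chosen after seeing the data, the normal limit on the standard error called 2 lower (HDAC11 and RCOR1), and 1.5-fold alone with no pseudocount called 2 higher (HDAC8 and SIRT4) and 2 lower (HDAC11 and KAT5). With a window of 5 Mb the neighbours' median moved by 0.2 or more for 3 of the 33 genes, to 0.11 for HDAC2, -0.24 for SIRT5 and 0.08 for NCOA2. Of the 8 partner genes called, TRIM24, PHIP and WDR5 were not called at 2-fold. WDR5 was also lost after scaling to the same sum, and ACSS1 with the filter at a mean of 5 FPKM. No paired analysis was possible because both libraries of a line went into 1 value, and leaving out a replicate was not run for that reason.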

Other observations

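Several partner genes, picked after their values were seen, stood among neighbours on the same side. Others did not, such as SUPT3H (0.13 beside a neighbour median of -0.39) and PHF20 (0.49 beside -0.16). No share over all partner genes is given. RBBP7 on chromosome X had 15 of 16 protein-coding neighbours within 2 Mb lower in LM2-4175, with a median of -0.85 on the log2 scale. MSL3, an MSL subunit on the same chromosome (23.3 against 12.96 FPKM, not called), had 9 of 10 lower. WDR5 on chromosome 9, near BRD3, had 33 of 34 lower, and TRIM24 on chromosome 7 had a neighbour median of -0.58. MORF4L1 on chromosome 15 had 20 of 25 neighbours higher, with a median of 0.49. HDAC9 and NMNAT2, which rose by 1.48 and 1.97 on the log2 scale, both had a neighbour median of 0.03. For HDAC9 this rested on 9 neighbours, 6 higher and 3 lower, and with a window of 5 Mb its neighbour median was 0.26. The part of position in these values was not tested.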
